A study of Mus musculus with 6 samples.

Results

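The genes described here are 10 receptors with which macrophages take up or recognise modified lipoproteins, microbial sugars and dying cells: Mrc1, Siglec1, Msr1, Cd36, Marco, Cd68, Clec4d, Clec4e, Clec7a and Scarb1. They were chosen by gene symbol, and the arrays hold 13 probes with those symbols for 9 of them. Cd68 had no probe named here. A probe was counted as detected on an array where its detection p-value, which ranks it among the negative control beads of that array, was under 0.01, and it was tested where it was detected on at least 3 of the 6 arrays. This left 10 probes of 8 receptors, out of 8205 genes tested among 19057 named genes.

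The cells were primary macrophages grown from the bone marrow of wild-type c57Bl6/J male mice aged 10 weeks, kept in MSF media and given either control peptide or RI-BPI, each at 5 µM for 12 h. RI-BPI is a peptide inhibitor designed to block corepressor binding by Bcl6, a transcriptional repressor, and the comparison asks which transcripts differ after its use. Both groups share genotype, dose and time, and each has 3 Illumina bead arrays. The submitters name these 3 arrays technical replicates, so the number of cultures and mice behind a group is not given, and the p-values measure only the spread between arrays.

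Scavenger receptors are a loose family of surface proteins that bind polyanionic ligands such as oxidised low-density lipoprotein. Msr1 and Marco are trimers with a collagen-like stalk (class A), and Cd36 and Scarb1 cross the membrane at both ends and handle lipids (class B). Mrc1 and Siglec1 are lectins that bind mannose-type sugars and sialic acid, and both are used as markers of resident macrophages. Clec7a (Dectin-1), Clec4e (Mincle) and Clec4d are C-type lectin receptors that bind fungal glucans and mycobacterial glycolipids and signal through the kinase Syk, Clec7a by its own tail motif and Clec4e and Clec4d with the adaptor Fcer1g.

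Median intensities per array were 45.8 to 47.4, and 13866 to 14357 of 45281 probes were detected per control array against 12931 to 13843 per RI-BPI array. Across genes, the correlation was 0.992 to 0.996 between arrays within a group and 0.945 to 0.948 between groups. All 18 macrophage identity genes with a probe were measured. Of these 12 were lower with RI-BPI, 0 were higher and 6 were not called, at a limma adjusted p under 0.05 by which 61.3% of all genes were called and 30.6% were lower. The defining markers moved unevenly, with log2 changes (RI-BPI minus control) of -1.73 for Fcgr1, -1.39 for C1qa and -1.32 for Aif1, which were called, and of -0.09 for Csf1r, -0.04 for Lyz2 and 0.09 for Cd14, which were not. Another Csf1r probe gave -0.96. The summed level of the identity genes was 102187 to 102888 on the RI-BPI arrays against 129316 to 134766 on the control arrays. Of the markers of other cell types, 0 of 11 genes of dendritic cells, 0 of 8 of lymphocytes and 0 of 11 of fibroblasts and endothelium passed the detection filter. In neutrophils 2 of 12 with a probe passed, S100a8 and Lcn2, both higher, with summed levels of 976 to 1059 with control and 1126 to 1278 with RI-BPI, while Mpo, Elane and Camp were detected on 0 arrays. Of 10 osteoclast genes 4 passed, with 1 higher, 2 lower and summed levels of 1442 to 1561 with control and 1333 to 1383 with RI-BPI. The part of these shifts in the receptor values was not tested, and in such bulk RNA fewer cells of a type and less RNA per cell cannot be told apart.

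With RI-BPI the receptors did not all move one way. Mrc1, Siglec1 and Msr1 fell 2.49-fold to 5.08-fold, Scarb1 was lower from a dim signal, detected on 1 of 3 RI-BPI arrays, by a size that depended on the background, and Marco was lower by a small amount that depended on single arrays. Clec4d was near its control level, and the other C-type lectin receptors with 2 detected probes each, Clec4e and Clec7a, gave opposite directions at their probes. Counting the brighter probe of each gene, 5 of the 8 tested receptors were lower, 2 higher and 1 not called at a limma adjusted p under 0.05. Over all 8205 genes 30.6% were lower and 30.7% higher, together 61.3%, so 7 of 8 called stands beside a large share of all genes. The median log2 change of the 8 receptors was -0.49, against 0.008 over all genes and -0.50 over the 18 macrophage identity genes. The receptor median depended on background and scaling, with -0.29 without background correction, -0.26 with an offset of 50, -0.30 with the authors' normalised values and -0.61 with median centring. The 3 arrays of one peptide did not overlap those of the other for 6 of the 8 receptors, against 64.9% of all genes. The number of receptors called ranged from 4 to 7 across 15 other settings, with 4 or 5 lower and 0 to 2 higher.

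**Figure D1:**
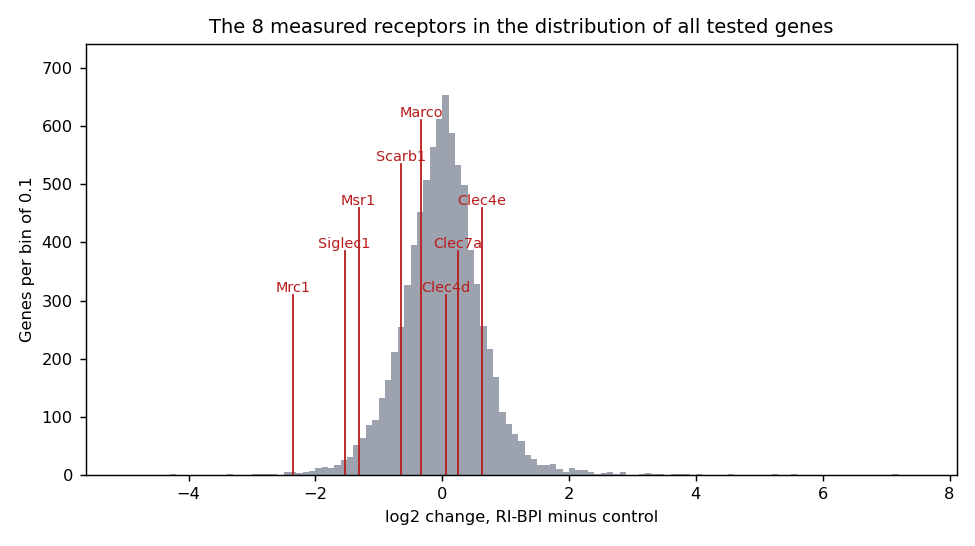
Histogram of the log2 change, RI-BPI minus control, of all 8205 tested genes in bins of 0.1, with a red line at each of the 8 measured receptors (line heights carry no value). Mrc1, Siglec1 and Msr1 lie in the left tail at -2.35, -1.54 and -1.32, and the other 5 lie between -0.65 and 0.63.

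Mrc1 encodes the mannose receptor, an endocytic lectin that clears glycoproteins with exposed mannose. Its deposited bead intensity was 571, 570 and 542 on the control arrays and 143, 131 and 112 on the RI-BPI arrays. All 3 RI-BPI arrays lay far below the control arrays, with no overlap. On the normalised log2 scale the control arrays averaged 9.04 ± 0.03 and the RI-BPI arrays 6.69 ± 0.14 (SD, n = 3). The change was -2.35 ± 0.11 (SE), or 5.08-fold lower (adjusted p = 1.14e-12). This was the 15th largest decrease among the 8205 genes. The bead error of this probe averaged 7.73% of its intensity, and the arrays of a group spread by 2.97% with control and 12.2% with RI-BPI.

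The stretch before the start site of Mrc1 is shown because this receptor fell most, and those of Clec4d and Clec4e because these genes are neighbours. The windows are the 250 bases upstream of the start, 5′ to 3′ on the gene's strand, from RefSeq (GRCm38.p6): chr2:14229164-14229413 (+ strand) for Mrc1, chr6:123261857-123262106 (+ strand) for Clec4d and chr6:123289872-123290121 (- strand) for Clec4e. Capitals mark matches to the motifs searched, and the table held an entry for 7 of the 10 receptors. Siglec1, Msr1 and Scarb1, which were called lower, had no entry. The 7 include Cd36 and Cd68, for which no change was tested.
Mrc1: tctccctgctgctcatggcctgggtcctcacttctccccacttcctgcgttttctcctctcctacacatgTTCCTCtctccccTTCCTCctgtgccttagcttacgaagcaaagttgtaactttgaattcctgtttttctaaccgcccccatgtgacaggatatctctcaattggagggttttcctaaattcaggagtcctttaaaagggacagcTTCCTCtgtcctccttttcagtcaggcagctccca
Clec4d: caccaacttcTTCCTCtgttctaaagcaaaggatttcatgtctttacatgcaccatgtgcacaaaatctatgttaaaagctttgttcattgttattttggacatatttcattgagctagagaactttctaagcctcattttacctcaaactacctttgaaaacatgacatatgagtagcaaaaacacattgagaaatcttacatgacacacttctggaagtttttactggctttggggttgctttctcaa
Clec4e: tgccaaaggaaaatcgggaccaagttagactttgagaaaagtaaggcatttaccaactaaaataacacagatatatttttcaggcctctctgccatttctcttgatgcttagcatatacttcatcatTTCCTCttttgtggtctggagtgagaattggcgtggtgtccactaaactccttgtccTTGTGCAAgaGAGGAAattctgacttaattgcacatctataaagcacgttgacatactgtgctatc

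The motifs, searched on both strands, were GAGGAA (a core of PU.1, the Ets factor of myeloid cells), TTCNNNGAA (a core shared by BCL6 and STAT sites), TGANTCA (AP-1), GAAANNGAA (interferon response element core) and TTGCNNAA (C/EBP). The PU.1 core stood before 6 of the 7 receptor genes, 1 of which, Clec7a, has 2 windows, both with a match. Of 27025 windows of the same length in all, 23.1% held it. Counted from the start site, with -1 the base just before it, Mrc1 held it at 3 places, beginning at -180, -167 and -35, all on the opposite strand. In Clec4e it began at -123 and -56, near a C/EBP match at -66, and in Clec4d at -240. None of the matches in these 3 windows overlapped. The C/EBP letters stood before 2 of the 7 genes, Clec4e and Cd68 (9.55% of all windows), and AP-1 letters before 1, Cd68 (6.87% of all windows). The BCL6 and STAT core and the interferon element core stood before 0 of the 7, beside 7.18% and 7.16% of all windows. A match describes letters only, and binding was not measured.

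Siglec1 encodes sialoadhesin, a large lectin that binds sialic acids on other cells and on viruses and is known as an interferon-inducible gene. Its intensity was 743, 712 and 598 with control and 266, 229 and 244 with RI-BPI. Every RI-BPI array was below every control array. The log2 level went from 9.34 ± 0.11 to 7.80 ± 0.10, a change of -1.54 ± 0.11 or 2.91-fold lower (adjusted p = 5.24e-10), rank 99 among decreases.

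Msr1, the class A scavenger receptor that takes up acetylated and oxidised lipoproteins, fell as well. Probe ILMN_2449412 gave 393, 444 and 418 with control and 200, 181 and 154 with RI-BPI. The groups again did not overlap. The log2 level was 8.58 ± 0.11 with control and 7.26 ± 0.13 with RI-BPI, a change of -1.32 ± 0.11, 2.49-fold lower (adjusted p = 6.13e-09). A second Msr1 probe, ILMN_2619240, was not detected on any array, with intensities between 35.7 and 43.9. The calls of Mrc1, Siglec1 and Msr1 held under each of the 15 other settings, with Mrc1 between -2.43 and -2.03, Siglec1 between -1.60 and -1.41 and Msr1 between -1.39 and -1.15.

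Marco, the collagen-like receptor that binds bacteria and particles, had a dim signal. It read 99.7, 75.7 and 94.6 with control and 75.7, 73.5 and 67.7 with RI-BPI. After normalisation control replicate 2 lay within the RI-BPI range, so the groups overlapped. The log2 change was -0.33 ± 0.14 (adjusted p = 0.044). The call was lost in 10 of 15 other settings. Leaving out control replicate 1 gave an adjusted p of 0.23, control replicate 3 gave 0.202, RI-BPI replicate 1 gave 0.0581, RI-BPI replicate 2 gave 0.0607 and RI-BPI replicate 3 gave 0.0995. Without control replicate 2 the change was -0.53.

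**Figure D2:**
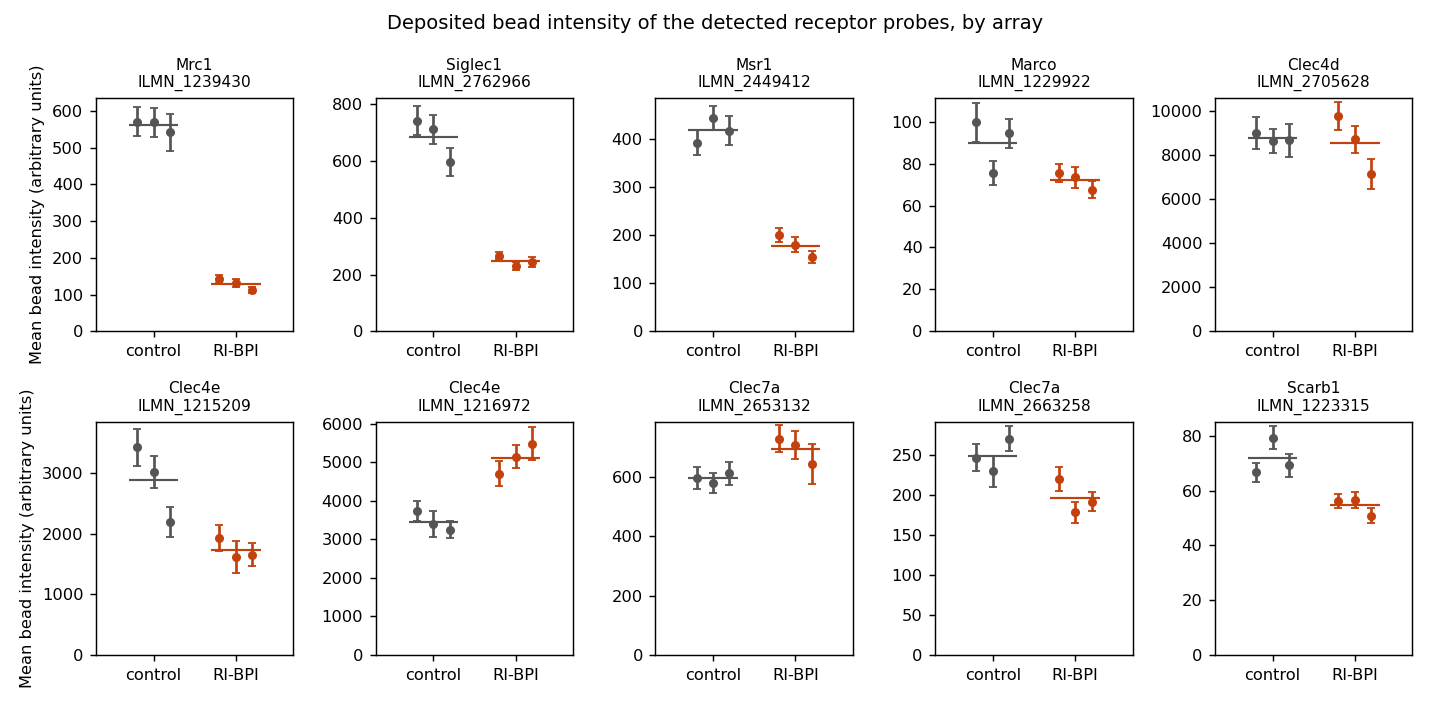
Deposited mean bead intensity (linear scale from 0, arbitrary units) of the 10 detected receptor probes on the 3 control and 3 RI-BPI arrays. Points are arrays, bars the standard error over beads and horizontal lines group means. Mrc1, Siglec1 and Msr1 separate widely, and the 2 probes of Clec4e move in opposite directions.

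The class B receptors were near the lower limit of the arrays. Scarb1 encodes SR-BI, which exchanges cholesterol with high-density lipoprotein. Probe ILMN_1223315 gave 66.7, 79.3 and 69.2 with control and 56.1, 56.7 and 50.8 with RI-BPI, where it was detected on 1 of 3 arrays. The groups did not overlap. The log2 change was -0.65 ± 0.12, 1.57-fold lower (adjusted p = 0.000131). It passed in each of the 14 other settings that could give a value, but its size depended on the background: without background correction it was -0.35, with an offset of 50 it was -0.32 and with the authors' normalised values -0.38. Another Scarb1 probe, ILMN_1218449, was detected on 0 arrays.

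Cd36, the fatty acid translocase and receptor for oxidised lipoprotein, was not above background on any array. Its probe read 42.6, 44.4 and 44.0 with control and 48.0, 46.8 and 53.3 with RI-BPI, and the lowest detection p was 0.0267. No change can be given at this signal. Cd68, the macrosialin of late endosomes and lysosomes, was not analysed here.

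Among the C-type lectin receptors, Clec4d gave a bright signal that did not pass the test. Its probe read 8988, 8611 and 8651 with control and 9743, 8697 and 7137 with RI-BPI. After normalisation 2 RI-BPI arrays lay above all control arrays and 1 below them. The log2 change was 0.07 ± 0.11 (adjusted p = 0.623), with a 95% interval of -0.16 to 0.29. With median centring the value was -0.05, also not called.

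Clec4e, the inducible receptor for mycobacterial cord factor and for a nuclear protein of dying cells, had 2 bright probes that disagreed. Probe ILMN_1216972 read 3735, 3404 and 3255 with control and 4710, 5143 and 5485 with RI-BPI. Probe ILMN_1215209 read 3431, 3022 and 2197 with control and 1929, 1623 and 1657 with RI-BPI. At the first all RI-BPI arrays were above control, and at the second all were below. The first probe, the brighter, changed by 0.63 ± 0.12 (1.55-fold higher, adjusted p = 0.000112 over genes). The second changed by -0.68 ± 0.13 (1.61-fold lower, adjusted p = 0.000154 over the 13975 kept probes, of which 59.5% were called). The log2 gap between the probes was 0.29 ± 0.25 on the control arrays and 1.60 ± 0.24 on the RI-BPI arrays (SD, n = 3). The gap differed by 1.31 between the groups, given as a description with no test. Both directions kept their side of the threshold with 4 other ways of background correction and scaling and with any 1 array left out, between 0.53 and 0.74 for the first probe and between -0.83 and -0.56 for the second. RefSeq lists 2 transcripts for this gene, and which of them each probe reads was not analysed here. No direction is therefore given for Clec4e. The mean of both probes changed by -0.03 (adjusted p = 0.834).

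Clec7a, the beta-glucan receptor, showed the same kind of split at a smaller size. Probe ILMN_2653132 read 596, 581 and 613 with control and 730, 709 and 644 with RI-BPI. Probe ILMN_2663258 read 246, 229 and 270 with control and 220, 178 and 191 with RI-BPI. The groups did not overlap at either probe, with RI-BPI higher at the first and lower at the second. The first changed by 0.25 ± 0.11 (adjusted p = 0.0482 over genes and 0.053 over kept probes) and the second by -0.31 ± 0.12 (0.0368 over kept probes). The gap between the probes was 1.40 ± 0.10 on the control arrays and 1.96 ± 0.16 on the RI-BPI arrays. This differed by 0.56, again with no test. The call of the first probe was lost without control replicate 1 (adjusted p = 0.121), control replicate 2 (0.159), RI-BPI replicate 1 (0.0708), RI-BPI replicate 2 (0.109) and RI-BPI replicate 3 (0.0549). Over kept probes the second lost its call without control replicate 1 (0.064), control replicate 3 (0.212) and RI-BPI replicate 2 (0.153). Of 2893 genes with at least 2 kept probes, 3.35% had a probe called higher and another called lower, and Clec4e was among them.

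**Figure D3:**
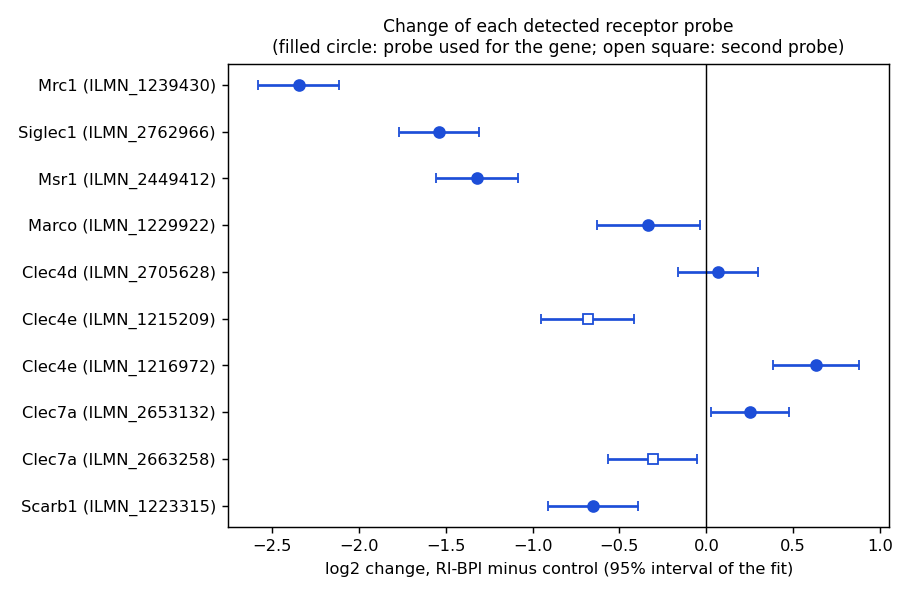
Log2 change, RI-BPI minus control, of the 10 detected receptor probes, with the 95% interval of the fit over kept probes. Filled circles are the probes used for the gene and open squares second probes. The intervals of the Clec4e probes lie on opposite sides of 0, those of Mrc1, Siglec1, Msr1 and Scarb1 lie below it, and that of Clec4d crosses it.

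Clec4d and Clec4e adjoin each other on chromosome 6, next to Clec4n, which encodes Dectin-2, a receptor for fungal mannans. Clec4n rose by 1.01 ± 0.11 on the log2 scale (2.01-fold, adjusted p = 2.24e-07). Its neighbours gave 0.07 for Clec4d and 0.63 or -0.68 for the probes of Clec4e. Whether the changes of these neighbours differ was not tested.

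Related receptors were taken from lists written with earlier results of these data known. Of 17 other scavenger receptors 6 were measured, and by their brightest probes 5 fell and 1 rose, beside 30.6% lower and 30.7% higher over all genes. Their median log2 change was -0.67. For 2 of these 5 the call depends on the probe: Scarb2 gave -0.67 at the brightest and 0.30 at another, and Stab1 gave -0.50 at the brightest and -0.02 and -0.18, not called, at others. Lrp1, a large endocytic receptor for lipoproteins and protease complexes, fell by 0.95 ± 0.12 (1.93-fold lower). The endothelial-type receptors Scarf2 and Scarf1 fell by 0.86 ± 0.11 and 0.67 ± 0.15. Cxcl16, a membrane-bound chemokine that also binds oxidised lipoprotein, rose by 0.49 ± 0.11. The change of Scarf2 was -0.53 with an offset of 50. Stab2, Cd163, Olr1 and Colec12 were detected on 0 arrays.

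Other lectin receptors moved both ways. Of 41 listed genes 16 were measured. By their brightest probes 8 fell, 4 rose and 4 did not pass, beside 30.6% lower and 30.7% higher over all genes. Their median was -0.28. For some of the 16 another probe gave a different call. Clec4a3, a C-type lectin receptor, fell by 1.80 ± 0.14 (3.49-fold lower), and a second probe, undetected with RI-BPI, at least 1.69-fold. Lgals9, the secreted galectin-9, fell by 1.17 ± 0.12, with -1.42 and -0.37 at other probes. Clec4a4 was undetected with RI-BPI and at least 1.35-fold lower. Beside Clec4n, the sialic acid lectin Cd33 rose by 0.48 ± 0.12 and Cd207 (langerin) by 0.39 ± 0.11. The Cd207 call was lost with median centring (adjusted p = 0.0536) and with the mean of its probes (0.294), and its second probe gave -0.12.

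Receptors and bridging proteins for phosphatidylserine serve macrophages in the uptake of dying cells. Of 17 listed 11 were measured, and by their brightest probes 9 fell, 1 rose and 1 did not pass, beside 30.6% lower and 30.7% higher over all genes. The 9 include Cd300a, for which the probes disagree in direction (-0.27 at the brightest, 0.90 and 1.13 at the others). Their median was -0.45. Pros1, the bridging protein S, fell by 2.10 ± 0.12 (4.29-fold lower, adjusted p = 1.35e-11). The receptor kinases Axl and Mertk, which bind it or its homologue Gas6, fell by 0.77 ± 0.11 and 0.74 ± 0.11. Itgav, the integrin alpha V chain, rose by 0.68 ± 0.12 at its brightest probe and by 1.81 at another. The brightest probe was picked anew with other background correction or scaling, so the values there can come from either probe of Itgav. They were 1.43 without background correction, 1.37 with an offset of 50, 1.69 with median centring and 1.43 with the authors' normalised values. The mean of its probes gave 1.25.

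The signalling partners of the lectin receptors did not move one way. Of 26 listed 21 were measured. By their brightest probes 6 rose, 5 fell and 10 did not pass, beside 30.7% higher and 30.6% lower over all genes. Their median was -0.02. For some of the 21 another probe gave a different call. Malt1, the paracaspase that joins Card9 and Bcl10 downstream of Syk, rose by 1.71 ± 0.11 (3.26-fold). The kinase Src rose by 1.05 ± 0.12 and the Toll-like receptor Tlr2 by 1.01 ± 0.12. The phosphatases Ptpn6 and Inpp5d, which restrain such signals, fell by 0.91 ± 0.10 and 0.55 ± 0.12, and the adaptor Tyrobp fell by 0.71 ± 0.11. Fcer1g, the adaptor of Clec4e and Clec4d, had a change of -0.14 ± 0.11 that did not pass (adjusted p = 0.261).

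**Figure D4:**
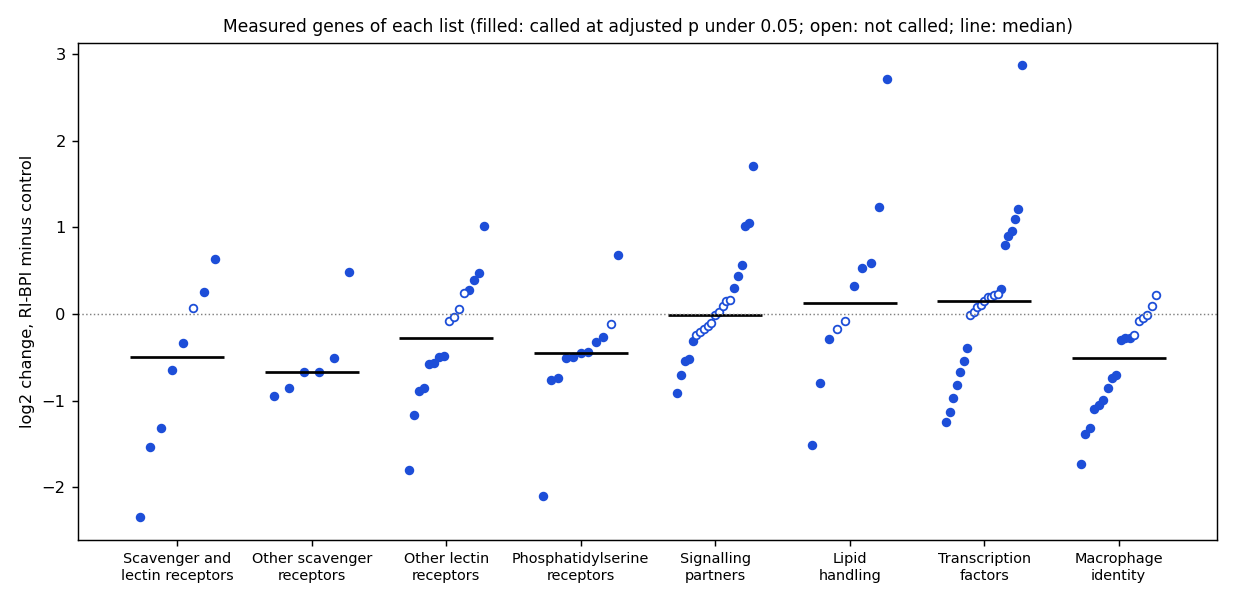
Log2 change, RI-BPI minus control, of each measured gene in the receptor group and in 7 related lists. Each point is a gene, filled where it was called at a limma adjusted p under 0.05 and open otherwise, and lines are medians. The medians run from -0.67 for other scavenger receptors to 0.15 for transcription factors.

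Genes that handle lipid after uptake were likewise mixed. Of 17 listed 10 were measured. By their brightest probes 5 rose, 3 fell and 2 did not pass, beside 30.7% higher and 30.6% lower over all genes. Their median was 0.12. Cav1, the caveolin of membrane pits, rose by 2.72 ± 0.11 (6.57-fold) and the sterol exporter Abcg1 by 1.23 ± 0.11. The lysosomal cholesterol transporter Npc1 rose by 0.59 ± 0.12 at its brightest probe, while its other kept probes gave 0.83 and -0.32. Lipoprotein lipase, Lpl, fell by 1.51 ± 0.10 and the fatty acid binding protein Fabp5 by 0.79 ± 0.13. Npc2 was lower by a log2 change of -0.29 ± 0.11, which did not pass when control replicate 2 was left out (adjusted p = 0.105), nor without RI-BPI replicate 1 (0.058) or RI-BPI replicate 3 (0.0679).

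Of 29 transcription factors reported elsewhere to act on such receptor genes, 23 were measured, with a median of 0.15. By their brightest probes 7 were higher, 7 lower and 9 not called, beside 30.7% higher and 30.6% lower over all genes. For some of the 23 another probe gave a different call. Klf4 rose by 2.87 ± 0.12 (7.31-fold), Egr2 by 1.22 ± 0.11 and Ppard, a nuclear receptor for fatty acids, by 1.10 ± 0.12. The interferon pathway factors Irf7 and Stat2 fell by 1.25 ± 0.11 and 1.14 ± 0.12, and the sterol receptor Nr1h3 (LXR alpha) fell by 0.97 ± 0.11. Another interferon pathway factor, Irf9, was called higher at its brightest probe (0.29 ± 0.11), with -0.09, not called, at another. Spi1, which encodes PU.1, had a change of 0.22 ± 0.11 that did not pass (adjusted p = 0.103). The part of these factors in the receptor values was not tested.

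**Figure D5:**
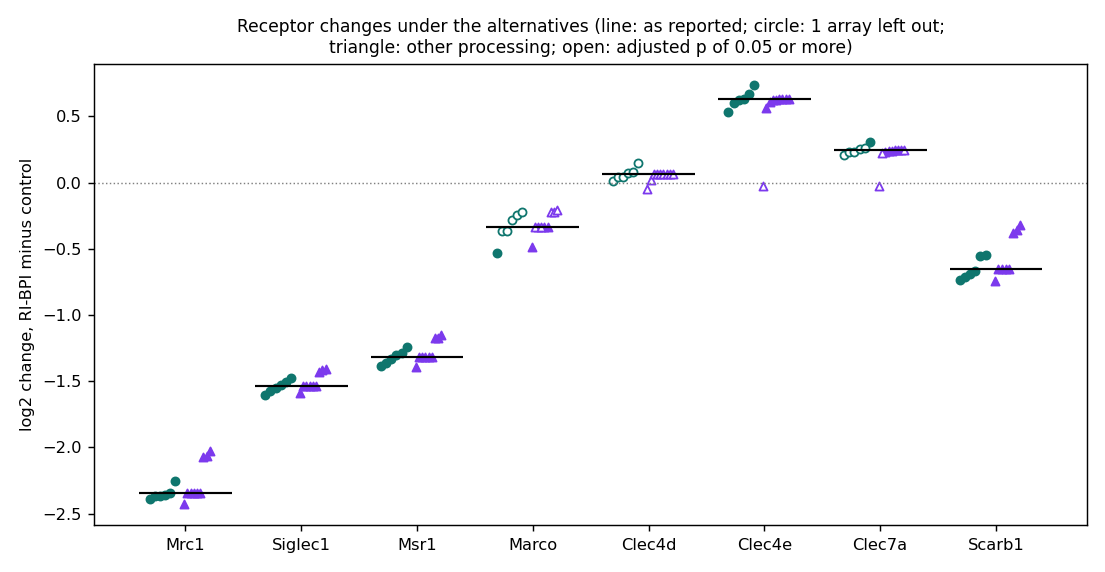
Log2 change, RI-BPI minus control, of the 8 measured receptors. Black lines are the reported values, circles leave out 1 array, triangles change another processing step, and open symbols have an adjusted p of 0.05 or more. Mrc1, Siglec1, Msr1 and Scarb1 stay filled and below 0, while Marco and Clec7a are open in most settings that leave out an array.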

How the data were processed

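Total RNA of the 6 samples was labelled with biotin and read on Illumina bead arrays, per the labels' protocols. The intensity values deposited by the authors are bead means without normalization, per the file headers, and come with a detection p-value, a standard error over beads and a bead number. The submitters' processing notes name GenomeStudio. A second deposited table holds intensity values normalized by the authors by a method not given in the sources used here, with column medians of 46.33. It served as an alternative.

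Probes were named through the platform annotation, in which 34885 of 45281 probes have 1 symbol, 18 several and 10378 none. Intensities were corrected with the normexp model of limma 3.58.1 (R 4.3.3), using an offset of 16 and a background estimated from detection p-values, quantile normalized and put on the log2 scale. The offset, and any background left in the signal, pull changes of dim probes towards 0. Each gene is given by its brightest kept probe on average. The groups were tested with limma's lmFit and eBayes, two-sided and Benjamini-Hochberg adjusted over 8205 genes, and calls were made at an adjusted p under 0.05. Second probes come from the same fit over 13975 kept probes. Where a group was undetected on all its arrays, an "at least N-fold" value sets the detected group against the lowest detected value per array or the probe's value there, whichever is higher. Summed marker levels are sums of normalized linear values over all probes of a list. The precision is limited by the number of arrays. Spread between cultures or mice is not measured, since the number of cultures and mice behind a group is not given. The fit was tested on simulated data.

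All receptors were named, and in each related list up to 3 called increases and 3 called decreases of largest size. Genes outside this rule (Fcer1g, Spi1, Irf9, the cell type markers, Cd300a, Scarb2, Stab1) were chosen after their values were seen. The members and lists were chosen with earlier results of these data known. Alternatives covered background, scaling, filter, probes per gene, variance model, replicate block and leaving out each array. With an array left out, the kept probes and the probe used for each gene stayed those of the full set. With other background, scaling or filter the brightest probe of each gene was picked anew.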

Additional observations from a re-analysis of the deposited data

How the results depend on the processing

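Mrc1, Siglec1, Msr1 and Scarb1 kept direction and call in all their alternatives. With the mean of the kept probes the receptors called were 4 in place of 7, with 0 higher, and Clec4e (-0.027) and Clec7a (-0.030) changed sign, which follows from averaging probes that disagree. Higher receptors were 1 in place of 2 with median centring and with the replicate block, and 1 to 2 with an array left out. Clec4d, not called in any setting, was -0.050 with median centring. Clec7a was not called with median centring (0.22) or with the replicate block (0.25). Marco was not called without background correction (-0.22), with an offset of 50 (-0.21) or with the authors' normalized values (-0.22). Why the call was lost there was not tested. It was also not called with no filter or with the mean of the kept probes. In these the change of its 1 probe stayed at -0.33 and only the adjusted p moved, to 0.212 and 0.0664. With an array left out, Marco ranged from -0.53 to -0.22 and Clec7a from 0.21 to 0.31. Deviations of arrays with the same replicate number correlated at r = 0.02, 0.002 and 0.03. The highest values between arrays of different number were 0.01, 0.003 and -0.01. No shared shift by number is visible, but this cannot tell whether a number marks a common culture or RNA. Of 479 values for other named genes under alternatives, 474 kept direction and call and 5 lost the call. Over all genes 4526 to 5136 were called. The headers give no chip, so a chip block was not run. Signals near background limit Marco, Scarb1 and Cd36.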

Other observations

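Probes of another related gene differed in size, named here after its values were seen. Clec5a, a lectin receptor that signals with Tyrobp, gave 0.06 at the brightest probe, which was not called, and 1.42, 0.40 and 0.14 at others. The sequences read by these probes were not analysed here, and the cause was not tested.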
